A study of Sus scrofa with 18 samples.

Results

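Chemokines and their receptors were described in the fat of growing pigs. The members were all genes of the count table whose symbol is that of a CC, CXC, C or CX3C chemokine, of a chemokine receptor or of an atypical chemokine receptor, which gave 51 of 29884 genes: 30 ligands, 17 signalling receptors and 4 atypical receptors. RNA-seq libraries came from 9 male Bama pigs, a Chinese miniature breed, fathered by the same boar, kept under the same conditions and fasted for a day before slaughter under pentobarbital, with no genetic change or drug compared. Subcutaneous fat (SAF) was taken from the back and visceral fat (VAF) from around the kidney of pigs aged 1, 3 or 6 months, giving the groups SAF1, SAF3, SAF6, VAF1, VAF3 and VAF6 with 3 libraries each, 18 in all. Values are CPM (counts scaled by library size with TMM), and libraries are named by group and replicate. VAF6-3 stood apart from the other VAF6 libraries and was left out of the tests below except where its inclusion is stated, a choice the study also made. Its value is the last in each list for VAF6. A fold change is on the log2 scale, SAF over VAF or the younger over the older age, so a negative value means a higher level in VAF or at the older age. A gene was called at an adjusted p below 0.05 and a fold above 1.5.

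Total counts ran from 16404239 to 22857354 per library. The adipocyte genes ADIPOQ, PLIN1, LEP, FABP4, CIDEC, LPL and PPARG summed to between 4404 and 17680 CPM, so all libraries held fat, and the lowest sums were those of VAF3-1 (5161 CPM) and VAF3-2 (4404 CPM). Those libraries also carried smooth muscle genes (7 markers, 7497 and 6361 CPM against 285.6 to 1004 in the other 16) and urothelial genes (9 markers, 1934 and 818.7 CPM against at most 11). VAF3-3 carried a low level of kidney tubule genes (8 markers, 7 in the table, 27.6 CPM against at most 2.88 elsewhere), with SLC12A1, a transporter of the loop of Henle, at 0 counts there. For VAF at 3 and 6 months, the GEO titles of 4 libraries and their second library names disagree, and the groups follow the column names of the count table. The other reading is given as an alternative.

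Chemokines are small secreted proteins that guide leukocytes along gradients. They act on G protein-coupled receptors of the leukocyte surface, and atypical receptors such as ACKR4 bind and remove them without G protein signalling. Homeostatic chemokines position cells in resting tissue and lymphoid organs, while inflammatory chemokines are induced by cytokines and recruit monocytes, T cells, neutrophils or eosinophils. In fat they are known mostly for the traffic of macrophages and lymphocytes.

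The sequences below are the 250 bases before the annotated start of 3 genes on which the results turn, read from the RefSeq assembly Sscrofa11.1, the build of the count table. They were chosen for CCL26, called between depots and closest to a call between ages, CXCL10, with its lowest SAF level at 6 months, and CXCL2, with the smallest p of any member in the test of a changing depot difference. Capitals mark letters found by a search of both strands for GAAANNGAA (from the interferon-stimulated response element), GGGNNTTTC (from the kappa B element), TTCNNNGAA (gamma-activated sequence) and TATAAA (core of the TATA box), motifs that can overlap each other.
CCL26 (plus strand, chr3:10381056-10381305): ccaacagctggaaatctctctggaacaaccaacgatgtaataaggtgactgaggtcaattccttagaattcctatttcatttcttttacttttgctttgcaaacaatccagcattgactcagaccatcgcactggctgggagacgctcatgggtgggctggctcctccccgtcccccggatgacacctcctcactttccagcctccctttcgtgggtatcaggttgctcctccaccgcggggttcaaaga
CXCL10 (minus strand, chr8:71695949-71696198): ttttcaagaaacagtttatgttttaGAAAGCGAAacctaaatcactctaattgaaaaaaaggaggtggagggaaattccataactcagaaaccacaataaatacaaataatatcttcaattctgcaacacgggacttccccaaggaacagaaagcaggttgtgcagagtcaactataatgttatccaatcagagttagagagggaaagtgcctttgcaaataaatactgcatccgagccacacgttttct
CXCL2 (plus strand, chr8:70157003-70157252): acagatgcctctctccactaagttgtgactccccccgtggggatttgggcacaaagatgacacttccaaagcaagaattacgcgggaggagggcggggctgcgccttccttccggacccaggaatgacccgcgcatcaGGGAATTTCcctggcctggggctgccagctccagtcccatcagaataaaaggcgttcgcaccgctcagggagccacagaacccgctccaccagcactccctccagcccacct
In CXCL10 the capitals are an interferon response match 225 to 217 bases before the start, and in CXCL2 a kappa B match 112 to 104 bases before it. The CCL26 window held none of the 4 motifs. Over the windows of 19545 protein-coding genes, 6.69% held GAAANNGAA, 3.88% GGGNNTTTC, 6.11% TTCNNNGAA and 9.77% TATAAA. Among the 51 members the windows with these letters numbered 8, 8, 6 and 10. The windows of CCR1 and XCR1 overlap and share the same TTCNNNGAA match, which is counted for both. Among the 46 members whose model starts before the coding sequence, windows with these letters numbered 6, 7, 6 and 8. A match is a description of the letters and not a measured binding site.

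Levels across the family spanned a wide range, and the leading genes were homeostatic ligands and scavenging receptors rather than signalling receptors. Of the 51 members, 35 had a mean of 1 CPM or more over the 18 libraries (23 ligands, 8 signalling receptors and 4 atypical receptors) and 19 had 10 CPM or more (14, 1 and 4). CCL28, a mucosal ligand, had 0 counts in every library, which allows up to 3 counts per library or 0.131 to 0.183 CPM, a limit that covers counting error only. Per kilobase of exon, so that genes can be compared, the highest level was that of CCL14, a homeostatic ligand of CCR1, with a mean of 176 CPM per kb. It was followed by CCL21 at 150.2 CPM per kb and CCL19 at 124 CPM per kb, the ligands of CCR7 that guide dendritic and naive T cells. Between them stood ACKR4, the scavenger of CCL19, CCL21 and CCL25, at 127 CPM per kb. The eotaxin CCL26 had 75 CPM per kb, the monocyte attractant CCL2 53.7, the decoy receptor ACKR1 50.9, the eotaxin CCL24 45.9 and the T cell attractant CCL5 36.7. CXCL12, the ligand of CXCR4, had the highest CPM of the ligands (mean 186) but 27.9 CPM per kb, because its annotated exons are long. Among the highest signalling receptors per kilobase were CXCR4 (5.10 CPM per kb), CX3CR1 (3.17) and CCR1 (2.83), all below the atypical ACKR2 (5.37). The annotated exon length sets these values, and the models of CCL19, CCL24, CCL3L1, CCR10 and CXCR4 start at the coding sequence.

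**Figure D1:**
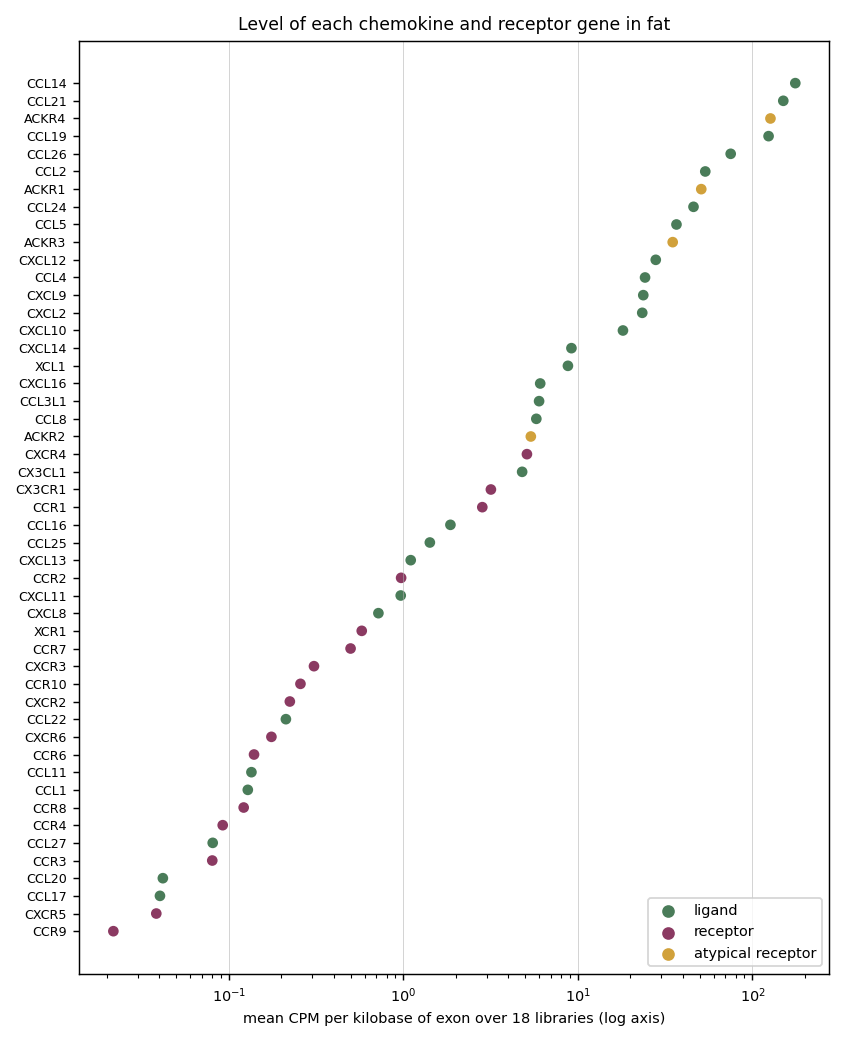
Mean level of chemokine and receptor genes with counts, in CPM per kilobase of exon over 18 libraries on a log axis, coloured by class. CCL14, CCL21, ACKR4 and CCL19 lie above 100 CPM per kb, and signalling receptors lie at 5.10 CPM per kb or below.

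Many members are neighbours in the genome. Within gaps of at most 500 kb, 31 of the 51 members fell into 9 clusters of 2 to 7 genes. The largest, on chromosome 13, held the receptors CCR9, CXCR6, XCR1, CCR1, CCR3 and CCR2 among others. CCL4, CCL3L1, CCL14, CCL16 and CCL5 lay on chromosome 12 (39479190 to 39659121), CCL21, CCL19 and CCL27 on chromosome 10 (32093783 to 32138980), CCL24 and CCL26 on chromosome 3 (10347397 to 10385677), and CXCL9, CXCL10 and CXCL11 on chromosome 8 (71665541 to 71725669). The annotated spans of CCR1 and XCR1 overlap on the same strand. CXCR6, CXCL10, CXCL11, CX3CR1, ACKR4 and CCL24 each overlap a gene of the other strand, and strand use in the counting is not given in the sources used here, so reads of such partners may not be told apart.

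Averaged over the 3 ages, the chemokine genes that passed the test were all higher in VAF than in SAF. Of 51 members, 40 passed the filter on low counts, and 9 of the 40 were called, all with the higher level in VAF, against 4.09% of the 16664 genes tested called in either direction and 2.9% called higher in VAF. Among the 9 were the T and NK cell ligand XCL1 and its receptor XCR1, the receptors CXCR3 and CXCR6 of effector T cells, and the ligands CCL5, CCL14, CCL19 and CCL26. At an unadjusted p under 0.05 the count was 23 of 40 (3 higher in SAF, 20 higher in VAF), against 24.7% of all genes tested. The median log2 fold change was -0.74 over the 40 members and -0.01 over all genes tested. Because a gene can pass the filter through the group where it is high, the means were also compared without it: 44 of the 50 members with counts had the higher mean of the 3 ages in VAF and 6 in SAF (CXCL12, CXCL2, ACKR3, ACKR4, CXCR4 and CCL11). That comparison of means weighs members with few counts, such as CCR9 and CCL27 (11 counts each), like the others. Its share over all genes is not given here. No member was called higher in SAF in the main averaged fit. With VAF6-3 included 9 of 39 were called, 8 higher in VAF and CXCL2 higher in SAF, against 4.45% of all genes. Both depots came from the same 9 pigs, but no label says that a number marks a pig. With the number within each age as a block 5 of 40 were called, all higher in VAF, against 4.57% of all genes. CCL14, XCL1 and XCR1 were among them and CXCL16 was added, while CCL5, CCL19, CCL26, CXCR3 and CXCR6 were not called.

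**Figure D2:**
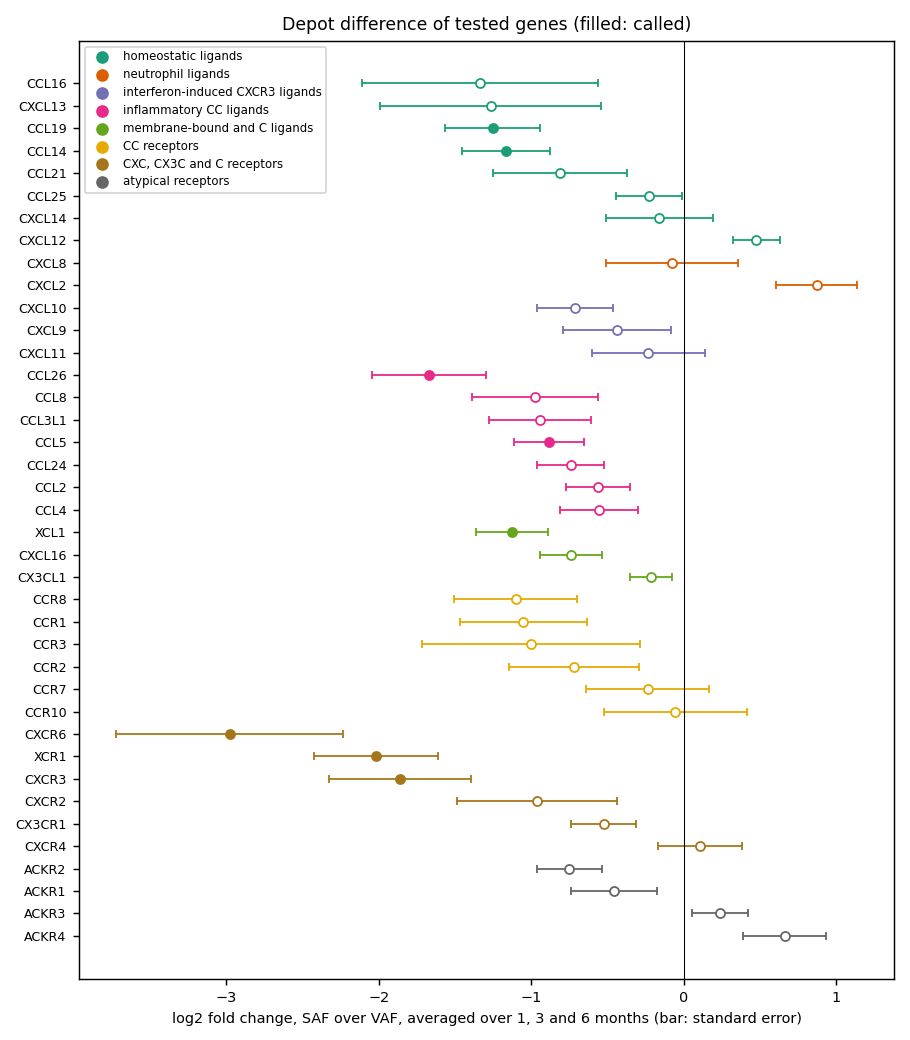
Log2 fold change, SAF over VAF, averaged over the 3 ages for tested members, ordered by role, with the standard error as a bar. Filled points are called genes, all left of 0, and CXCL2, ACKR4 and CXCL12 lie farthest to the right.

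The count of called members changed when single libraries were left out. With the share of all genes called in the same fit in brackets, it was 1 without VAF6-2 (1.45%), 2 without SAF1-3 (2.07%) or VAF6-1 (1.31%), 3 without SAF1-1 (2.18%), SAF3-1 (2.19%) or VAF3-2 (2.62%), 4 without SAF3-2 (2.45%) or SAF6-3 (3.48%), 5 without SAF3-3 (2.26%), SAF6-2 (2.82%) or VAF1-2 (3.29%) and 6 without SAF6-1 (2.77%) or VAF1-3 (2.28%). Without VAF3-3 it was 16 of 40 (12.9%), with CXCL2 and ACKR4 higher in SAF. CXCL2 was called higher in SAF without SAF3-1 too. The fits without SAF1-2 (3.52%), VAF1-1 (3.89%) and VAF3-1 (3.29%) are not listed by member count here. Except without VAF3-3, the share of all genes called also fell below that of the main fit, so a lower count was not particular to the members. DESeq2 called 14 members, 13 higher in VAF and CXCL2 higher in SAF, against 7.81% of the genes it tested. Under the other reading of the labels the count was 5, against 4.14% of all genes.

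Markers of leukocytes moved with this contrast. Called higher in VAF were 5 of 7 tested T cell markers (median log2 fold change -1.16), 7 of 10 macrophage and monocyte markers (-1.07), 4 of 7 NK cell markers (-0.84) and 1 of 4 tested dendritic cell markers (BATF3), and none of these lists had a gene called higher in SAF. No gene was called among 8 B and plasma cell markers (median -0.91), 4 neutrophil markers (-0.0073) and 3 mast cell markers (-0.21). Markers of other tissue moved too: 2 of 8 urothelial markers (-3.48), 1 of 7 smooth muscle markers (CNN1, median -1.55) and the only tested mesothelial marker, WT1 (-5.18), were called higher in VAF. The summed macrophage and monocyte markers, all 10 of which were in the table, ran from 319.1 to 670.0 CPM in SAF1 and 899.2 to 1555 CPM in VAF1, from 462.0 to 979.6 CPM in SAF3 and 1022 to 2527 CPM in VAF3, and from 520.3 to 1084 CPM in SAF6 and 1400 to 3456 CPM in VAF6. Summed T cell markers (8 of 9 in the table) ran from 11.6 to 36.9 CPM over the SAF libraries and from 17.2 to 69.1 CPM over the VAF libraries. NK cell markers (7 of 7) ran from 13.9 to 34.2 CPM over SAF and from 33.2 to 101.2 CPM over VAF. No T cell, macrophage or NK marker in the table was at 0 counts over a whole group. Their part in the chemokine result was not tested. In bulk tissue, fewer cells of a type and less RNA per cell cannot be told apart.

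XCL1 and XCR1 gave the 2 smallest adjusted p of the family. XCL1 (chromosome 4, 82432845 to 82436150) is a ligand of activated T and NK cells, and XCR1 (chromosome 13, 29150376 to 29233802) is its receptor on cross-presenting dendritic cells. XCL1 stood at 2.97, 2.96 and 3.55 CPM in SAF1, 2.90, 1.82 and 1.65 in SAF3 and 0.625, 1.10 and 0.958 in SAF6, and at 3.31, 9.11 and 5.98 CPM in VAF1, 2.48, 3.61 and 4.51 in VAF3 and 2.47, 3.29 and 1.25 in VAF6. At 6 months every VAF library lay above every SAF library, while at 1 and 3 months the groups overlapped. XCL1 had an averaged fold change of -1.13 ± 0.24 (SE), adjusted p = 0.0180. XCR1 stood at 2.59, 1.48 and 3.03 CPM in SAF1, 2.67, 1.70 and 1.45 in SAF3 and 0.812, 2.92 and 0.585 in SAF6, and at 2.90, 7.31 and 9.38 CPM in VAF1, 2.16, 7.37 and 11.12 in VAF3 and 5.17, 14.3 and 1.06 in VAF6. The VAF values were both higher and more spread, and VAF6-3 lay within the SAF range. The averaged fold change of XCR1 was -2.02 ± 0.40 (SE), adjusted p = 0.0145. Each of these genes was called under 22 of 24 alternatives. The fit without SAF6-3 is counted more than once among them, and most of the others share nearly all libraries. FLT3 and BATF3, further dendritic cell genes, had averaged fold changes of -1.21 (adjusted p = 0.0658) and -1.43 (adjusted p = 0.00936). Of the other tested markers of that list, LAMP3 had -0.62 (adjusted p = 0.374). ZBTB46 went the other way, with 0.20 (adjusted p = 0.553).

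CCL5 is a ligand made by T and NK cells that attracts T cells and monocytes. CCL5 (chromosome 12, 39652731 to 39659121) ranged from 8.57 to 44.0 CPM over the 9 SAF libraries and, with 17.2, 40.9 and 33.6 CPM in VAF1, 30.1, 62.1 and 41.5 in VAF3 and 30.5, 34.7 and 8.62 in VAF6, overlapped between depots at 1 and 3 months, though not at 6 months among the libraries tested. Its averaged fold change was -0.88 ± 0.23 (SE), adjusted p = 0.0420. CCL3L1 and CCL4, inflammatory ligands of the same cluster on chromosome 12, did not pass: CCL3L1 had -0.94 ± 0.34 (SE), adjusted p = 0.110, and CCL4 -0.55 ± 0.26 (SE), adjusted p = 0.196. Over all 18 libraries the lowest, median and highest values were 0.160, 1.68 and 2.95 CPM for CCL3L1 and 1.75, 7.46 and 18.7 CPM for CCL4.

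CXCR3 and CXCR6 mark effector T and NK cells and were both low. CXCR3 (chromosome X, 57592032 to 57595706) had 212 counts over all libraries, with 0.110, 0.204 and 0.313 CPM in SAF1, 0.398, 0.243 and 0.568 in SAF3 and 0, 0.497 and 0.160 in SAF6 against 0.354, 0.903 and 0.778 in VAF1, 0.475, 1.02 and 1.43 in VAF3 and 1.29, 1.52 and 0.380 in VAF6. Every VAF1 library lay above every SAF1 library. CXCR3 had an averaged fold change of -1.86 ± 0.47 (SE), adjusted p = 0.0367. CXCR6 (chromosome 13, 29095900 to 29100666) had 122 counts over all libraries and was at 0 in all 3 SAF1 libraries. Its values were 0.455, 0.243 and 0.206 CPM in SAF3, 0.0625, 0.166 and 0.266 in SAF6, 0, 0.731 and 0.0410 in VAF1, 0.739, 0.661 and 0.800 in VAF3 and 0.705, 0.976 and 0.190 in VAF6. At 3 months VAF lay above SAF without overlap. CXCR6 was called (adjusted p = 0.0408), but its fitted fold change of -2.98 depends on the prior count, since SAF1 is at 0. CXCL16, the ligand of CXCR6, had lowest, median and highest values of 3.58, 8.03 and 10.8 CPM in SAF and 7.44, 13 and 17.8 CPM in VAF, with a fold change of -0.74 ± 0.20 (SE), adjusted p = 0.0505, just short of the threshold.

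The CXCR3 ligands CXCL9, CXCL10 and CXCL11, induced by interferon, did not pass the averaged test. CXCL10 had a fold change of -0.71 ± 0.25 (SE), adjusted p = 0.103, CXCL9 -0.44 ± 0.36 (SE), adjusted p = 0.451 and CXCL11 -0.23 ± 0.37 (SE), adjusted p = 0.717. In SAF the lowest, median and highest values were 2.44, 8.73 and 15.7 CPM for CXCL9 and 5.31, 14.7 and 34.9 CPM for CXCL10, and in VAF 3.29, 9.71 and 22.1 CPM and 5.09, 20.7 and 51.9 CPM. Ranges of the depots overlapped for both.

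**Figure D3:**
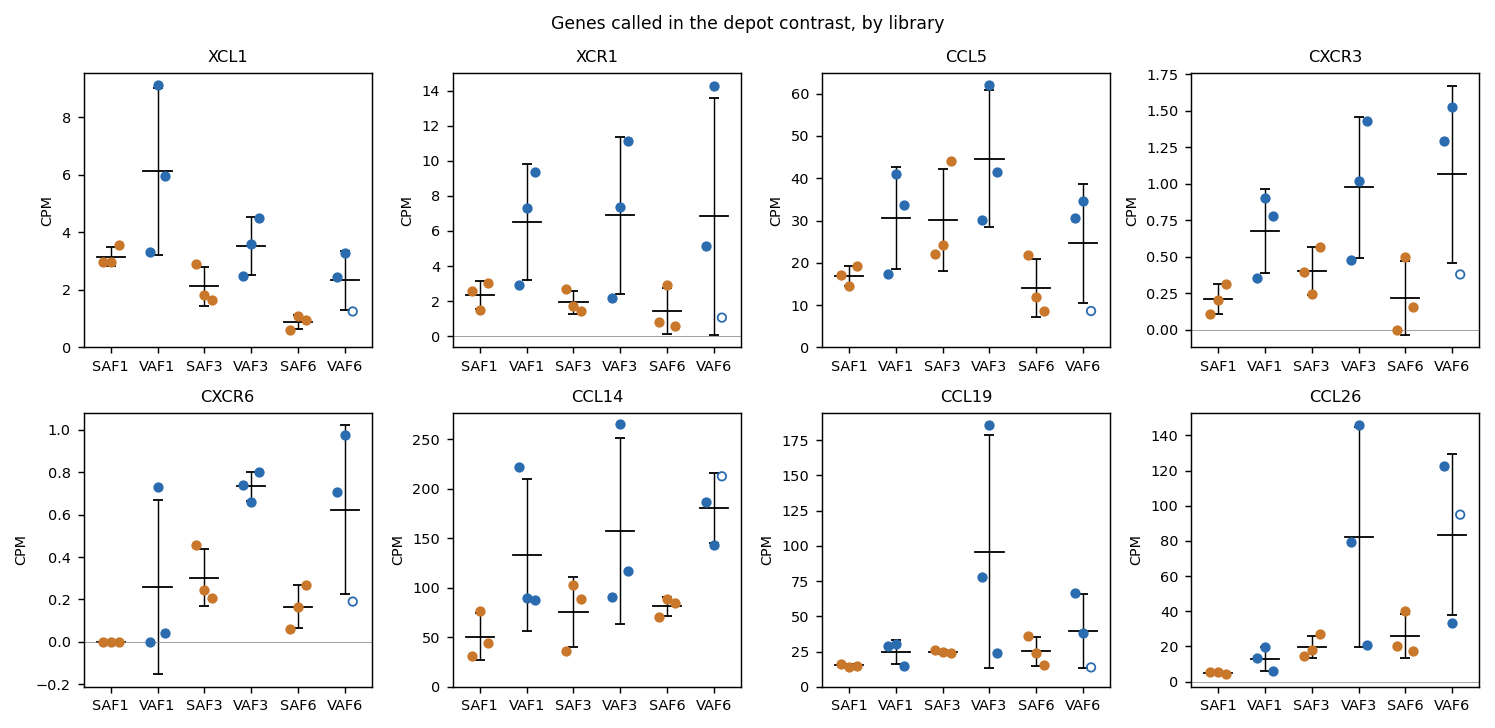
CPM of 8 genes called in the averaged depot contrast, in each library (SAF orange, VAF blue, VAF6-3 open), with the mean of 3 libraries and the SD as a bar. VAF means lie above SAF means at every age in all 8 panels, and the high VAF3 values of CCL19 and CCL26 are those of VAF3-1 and VAF3-2.

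Homeostatic ligands went in different directions. CCL14 (chromosome 12, 39611887 to 39616050), the highest gene of the family per kilobase, had 30.9, 76.9 and 43.9 CPM in SAF1, 36, 103 and 88.2 in SAF3 and 70.6, 88.2 and 84.9 in SAF6, and 222, 89.6 and 87.8 CPM in VAF1, 90.8, 265 and 117 in VAF3 and 187, 143 and 212 in VAF6. All VAF libraries lay above all SAF libraries at 1 and 6 months. Its fold change over the ages was -1.17 ± 0.29 (SE), adjusted p = 0.0355. CXCL12, which holds leukocytes and progenitors in tissue through CXCR4, was on the other side, with lowest, median and highest values of 171, 214 and 301 CPM in SAF and 78.1, 158 and 193 CPM in VAF and a fold change of 0.48 ± 0.16 (SE), adjusted p = 0.0864. Neither of its receptors passed: CXCR4 had 0.11 ± 0.28 (SE), adjusted p = 0.833, and the scavenger ACKR3 0.24 ± 0.18 (SE), adjusted p = 0.427. CXCL14, an epithelial ligand, had -0.16 ± 0.35 (SE), adjusted p = 0.799. The low CCL16 (457 counts in all) had -1.34 ± 0.78 (SE), adjusted p = 0.296, and CCL25, the thymic and gut ligand of CCR9, ranged from 1.86 to 6.87 CPM over the 18 libraries.

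The CCR7 axis leads dendritic and naive T cells into lymph nodes. Its ligands CCL19 and CCL21, but not CCR7, were highest in 2 libraries of VAF at 3 months. CCL19 (chromosome 10, 32110366 to 32112529) stood at 77.7, 186 and 23.8 CPM in VAF3, and CCL21 (chromosome 10, 32093783 to 32094482) at 172, 373 and 22.7 CPM there, so VAF3-1 and VAF3-2 lay far above VAF3-3 for both neighbouring genes. In the other groups CCL19 had 16.5, 14.4 and 14.5 CPM in SAF1, 25.9, 24.6 and 23.6 in SAF3, 35.7, 23.9 and 15.6 in SAF6, 29.2, 30.4 and 14.9 in VAF1 and 66.2, 38.2 and 13.7 in VAF6. CCL21 had 25.5, 96.2 and 39.4 CPM in SAF1, 33.6, 20 and 56 in SAF3, 28.5, 29.4 and 17.1 in SAF6, 64.5, 83.6 and 66.4 in VAF1 and 8.28, 30.4 and 20 in VAF6. The averaged fold change was -1.25 ± 0.31 (SE), adjusted p = 0.0355, for CCL19 and -0.81 ± 0.44 (SE), adjusted p = 0.263, for CCL21. At single ages, with no call, CCL19 had -0.72 at 1 month, -1.98 at 3 months and -1.06 at 6 months. CCL21 had -0.41, -2.40 and 0.37. CCR7 itself was at 0.306, 0.828 and 1.69 CPM in SAF and 0.475, 0.813 and 3.35 CPM in VAF (lowest, median, highest), with -0.24 ± 0.40 (SE), adjusted p = 0.738. VAF3-1 and VAF3-2 are the libraries with the smooth muscle and urothelial genes, and the part of that tissue in the values was not tested. The lymph node stroma genes MADCAM1, FDCSP, GLYCAM1 and CHST4, of which 2 were in the table, summed to at most 1.63 CPM in any library. ACKR4, which removes both ligands, had lowest, median and highest values of 93.5, 248 and 365 CPM in SAF and 45.1, 148 and 224 CPM in VAF and a fold change of 0.66 ± 0.27 (SE), adjusted p = 0.159. Its lowest values, in VAF3-1 (67.5 CPM) and VAF3-2 (45.1 CPM), came from the same libraries. CXCL13, the B cell follicle ligand, had at most 4.38 CPM (VAF3-1) and its receptor CXCR5 at most 0.343 CPM, with B cell markers between 4.67 and 45.6 CPM, highest in VAF3-3.

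**Figure D4:**
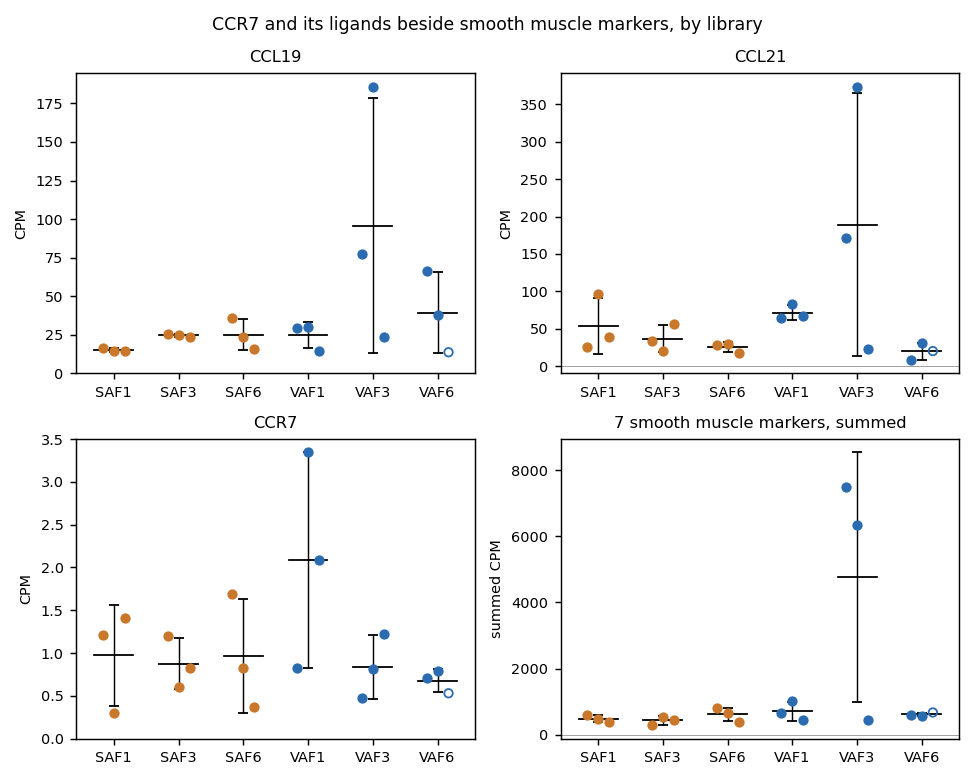
CPM of CCL19, CCL21 and CCR7 in each library (SAF orange, VAF blue, VAF6-3 open), and the summed CPM of 7 smooth muscle markers, with the mean of 3 libraries and the SD as a bar. VAF3-1 and VAF3-2 lie highest for both ligands and for the smooth muscle genes, and not for CCR7.

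Of the eotaxins, ligands of CCR3 on eosinophils, CCL26 was called and its neighbour CCL24 was not. CCL26 (chromosome 3, 10381306 to 10385677), whose upstream sequence is given above, stood at 5.67, 5.37 and 4.12 CPM in SAF1, 14.7, 17.8 and 26.9 in SAF3 and 20.1, 40.1 and 17.4 in SAF6, and at 13.1, 19.4 and 5.90 CPM in VAF1, 79.3, 146 and 20.9 in VAF3 and 122, 33.2 and 94.9 in VAF6. VAF lay above SAF without overlap at 1 month, and overlapped it at 3 and 6 months. The averaged fold change was -1.67 ± 0.37 (SE), adjusted p = 0.0241. CCL24 had 31.5, 51.1 and 70.1 CPM in SAF and 59.7, 76 and 135 CPM in VAF (lowest, median, highest), with -0.74 ± 0.22 (SE), adjusted p = 0.0671. CCL11, the third eotaxin, had 26 counts in all, and CCR3 100.

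None of the monocyte and neutrophil ligands CCL2, CCL8, CXCL2 and CXCL8 was called between depots in the main edgeR fits. CXCL2 and CCL8 were called in some alternative fits, described with those fits. CCL2, the main monocyte attractant, had 17.2, 30.5 and 57.6 CPM in SAF and 27.2, 39 and 92.1 CPM in VAF (lowest, median, highest), with a fold change of -0.56 ± 0.21 (SE), adjusted p = 0.129. CCL8 had -0.97 ± 0.41 (SE), adjusted p = 0.166, and CCR2, the receptor of both, -0.72 ± 0.43 (SE), adjusted p = 0.306. CXCL2 (chromosome 8, 70157253 to 70159145), a ligand of CXCR2 on neutrophils, had 8.53, 15.9 and 14.8 CPM in SAF1, 24, 79.4 and 77.6 in SAF3 and 23.5, 36.1 and 32.3 in SAF6, and 14.4, 22.6 and 15.1 CPM in VAF1, 7.60, 19.1 and 14.5 in VAF3 and 10.9, 21.8 and 13.8 in VAF6. SAF lay above VAF without overlap at 3 and 6 months, but not at 1 month. The averaged fold change was 0.87 ± 0.27 (SE), adjusted p = 0.0728. CXCL8 stayed at or below 3.44 CPM in all 18 libraries, and the neutrophil markers (6 of 6 in the table) summed to 7.41 to 36.0 CPM in SAF and 4.70 to 60.6 CPM in VAF, with MPO at 0 in SAF1, SAF6, VAF3 and VAF6 and ELANE at 0 in VAF6.

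CX3CL1, a membrane-bound ligand of endothelium, was even across libraries (13.1 to 23.6 CPM) and had -0.22 ± 0.14 (SE), adjusted p = 0.330. Its receptor CX3CR1 had -0.53 ± 0.21 (SE), adjusted p = 0.151. Of the atypical receptors, ACKR2, the scavenger of inflammatory CC ligands on lymphatic endothelium, had -0.75 ± 0.22 (SE), adjusted p = 0.0570 and ACKR1, the decoy of venular endothelium and red cells, -0.46 ± 0.28 (SE), adjusted p = 0.322. CCR1 had -1.05 ± 0.42 (SE), adjusted p = 0.143, with 63.6 CPM in VAF1-3 and 2.69 to 10.8 CPM in the other 17 libraries. VAF1-3 also had the highest neutrophil marker sum (60.6 CPM) and NK marker sum (101.2 CPM). Most of these sums came from CSF3R (51.5 CPM) and NKG7 (72.7 CPM), and no other marker of either list was highest in that library. CCR8, a receptor of regulatory T and T helper cells, had -1.10 ± 0.40 (SE), adjusted p = 0.119 at no more than 1.15 CPM.

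At single ages most members lay higher in VAF, but none was called. By edgeR no member was called at 1, 3 or 6 months, where 0%, 0.0401% and 0% of all genes tested were called. At 1 month 16 of 35 tested members had an unadjusted p under 0.05, 15 of them higher in VAF, against 11.3% of all genes in either direction and 5.56% higher in VAF. At 3 months these were 11 of 36 members and 9 higher in VAF, against 12.6% and 8.51%. At 6 months they were 14 of 38 and 13, against 6.79% and 3.35%. The median log2 fold change of the tested members was -0.74, -0.50 and -0.72 at the 3 ages, against 0.00, 0.00 and 0.01 over all genes. DESeq2 called 0, 8 and 2 members, against 1.22%, 5.78% and 1.16% of the genes it tested. These comparisons use the libraries of the averaged contrast. Of 34 members tested at all ages, 21 had the higher fitted level in VAF at each age, and CXCL12 and ACKR3 in SAF at each age. The matching shares over all genes are not given here, so these counts have no background to be set against.

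At 1 month the members with the smallest p and no overlap were CCR8, CCL3L1 and CCL26. CCR8 stood at 0.330, 0.306 and 0.157 CPM in SAF1 and 0.650, 0.774 and 1.15 in VAF1, with -1.68 ± 0.48 (SE), adjusted p = 0.422. CCL3L1 had 0.826, 0.766 and 1.46 CPM and 2.01, 2.62 and 2.91 CPM, with -1.30 ± 0.38 (SE), adjusted p = 0.422. CCL26 had -1.34 ± 0.42 (SE), adjusted p = 0.422. All 3 were chosen for VAF1 libraries that lay above the SAF1 range, and none passed the test.

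At 3 months CXCL2 (2.11 ± 0.52 (SE), adjusted p = 0.195) and ACKR4 (1.49 ± 0.52 (SE), adjusted p = 0.304) lay higher in SAF. ACKR2, with 22.4, 23.9 and 26.2 CPM in SAF3 and 36.3, 44.8 and 39.4 in VAF3, had -0.75 ± 0.19 (SE), adjusted p = 0.195. CCL8, with 1.37, 1.89 and 1.08 CPM and 3.11, 5.39 and 3.54 CPM, had -1.49 ± 0.43 (SE), adjusted p = 0.236. CXCL16, with 3.58, 8.03 and 10.8 CPM and 13, 17.8 and 15 CPM, had -1.05 ± 0.41 (SE), adjusted p = 0.347. ACKR2, CCL8 and CXCL16 were named here because their VAF3 libraries did not overlap SAF3. The place of VAF3-3 above all SAF3 libraries follows from that choice. The part of the smooth muscle and urothelial tissue in these values was not tested. The 8 members that DESeq2 called at this age were ACKR2, ACKR4, CCL8, CCL19, CCL21, CCL26, CXCL2 and XCR1. Without VAF3-3 edgeR called 5 of 36 (ACKR2, ACKR4, CCL19, CCL21 and CCL26), against 17.6% of all genes.

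At 6 months CXCL2 had 0.90 ± 0.36 (SE), adjusted p = 0.703, CCL14 -1.02 ± 0.23 (SE), adjusted p = 0.421, CXCL10 -1.21 ± 0.30 (SE), adjusted p = 0.476 and XCR1 -2.74 ± 0.78 (SE), adjusted p = 0.600. Libraries of the same number deviated together at this age (correlations of 0.677, 0.526 and 0.706 over 15343 genes). The last is that of SAF6-3 with VAF6-3, a library outside the block fit that follows. With so few pairs, the adjusted p of that fit rest on very little information about the spread between libraries. With the replicate number as a block, which leaves 2 complete pairs without VAF6-3, 9 members were called, against 5.12% of all genes: CXCL2 higher in SAF (0.91 ± 0.18 (SE), adjusted p = 0.00839), and 8 higher in VAF, among them ACKR1, ACKR2, CCL5, CCL14, CCL19, CXCL10 and XCR1. Of these XCR1 had -2.43 ± 0.34 (SE), adjusted p = 0.00124, and CCL14 -1.05 ± 0.19 (SE), adjusted p = 0.00487. Values of CXCL10 were 5.31, 9.27 and 7.88 CPM in SAF6 and 17.1, 17.6 and 5.09 in VAF6.

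Within SAF edgeR called no member between ages, and DESeq2 called 3 between 1 and 3 months, 2 between 3 and 6 months and 6 between 1 and 6 months, against 3.39%, 1.95% and 3.5% of the genes it tested. Between 1 and 3 months 7 of 35 tested members had an unadjusted p under 0.05, all higher at 3 months, against 13.6% of all genes, with 0.101% of all genes called. CCL26 went from 5.05 ± 0.819 CPM (SD, n = 3) to 19.8 ± 6.31 CPM, with -1.96 ± 0.27 (SE), adjusted p = 0.0558. CXCL2 had -2.19 ± 0.46 (SE), adjusted p = 0.103, with SAF3-2 at 79.4 CPM, SAF3-3 at 77.6 and SAF3-1 at 24.0, and CCL19 -0.70 ± 0.14 (SE), adjusted p = 0.0946. The 3 were named here because their libraries did not overlap between ages, and they were those called by DESeq2. Without SAF3-1 edgeR called 2, CCL26 and CXCL2, against 0.249% of all genes.

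Between 3 and 6 months in SAF 9 of 35 members had an unadjusted p under 0.05, 8 of them lower at 6 months, against 9.56% of all genes, and 0% of all genes were called. CX3CR1, the fractalkine receptor of monocytes and T cells, stood at 9.16, 7.97 and 10.8 CPM in SAF3 and 1.94, 3.20 and 3.03 in SAF6, with 1.77 ± 0.30 (SE), adjusted p = 0.165. CXCL10 was at 34.9, 14.7 and 19 CPM in SAF3, with 1.61 ± 0.37 (SE), adjusted p = 0.218, and CCL2 had 0.96 ± 0.28 (SE), adjusted p = 0.316. All 3 were named here because each SAF6 library lay below the SAF3 range. From 1 to 6 months the count was 9 of 34, 5 lower and 4 higher at 6 months, against 12.7% of all genes, with 0.303% called. XCL1 had 1.82 ± 0.37 (SE), adjusted p = 0.105, CXCL10 1.46 ± 0.31 (SE), adjusted p = 0.113 and CX3CR1 1.55 ± 0.33 (SE), adjusted p = 0.117, with SAF1 values of 9.80, 5.98 and 8.09 CPM for CX3CR1 and 20.3, 14.4 and 26.7 CPM for CXCL10. On the other side were CCL26 (-2.34 ± 0.36 (SE), adjusted p = 0.0539), CXCL2 (-1.22 ± 0.29 (SE), adjusted p = 0.151) and CCL16 (-3.16 ± 0.96 (SE), adjusted p = 0.247). CCL26 was called from 1 to 6 months without SAF6-3, against 1.6% of all genes. These contrasts share the SAF1 or SAF6 libraries with those above. Summed T cell markers were 30.8 to 36.9 CPM in SAF3 and 11.6 to 13 CPM in SAF6, and all 7 tested ones had an unadjusted p under 0.05 with the lower level at 6 months. Their part in the lower ligand and receptor values was not tested.

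**Figure D5:**
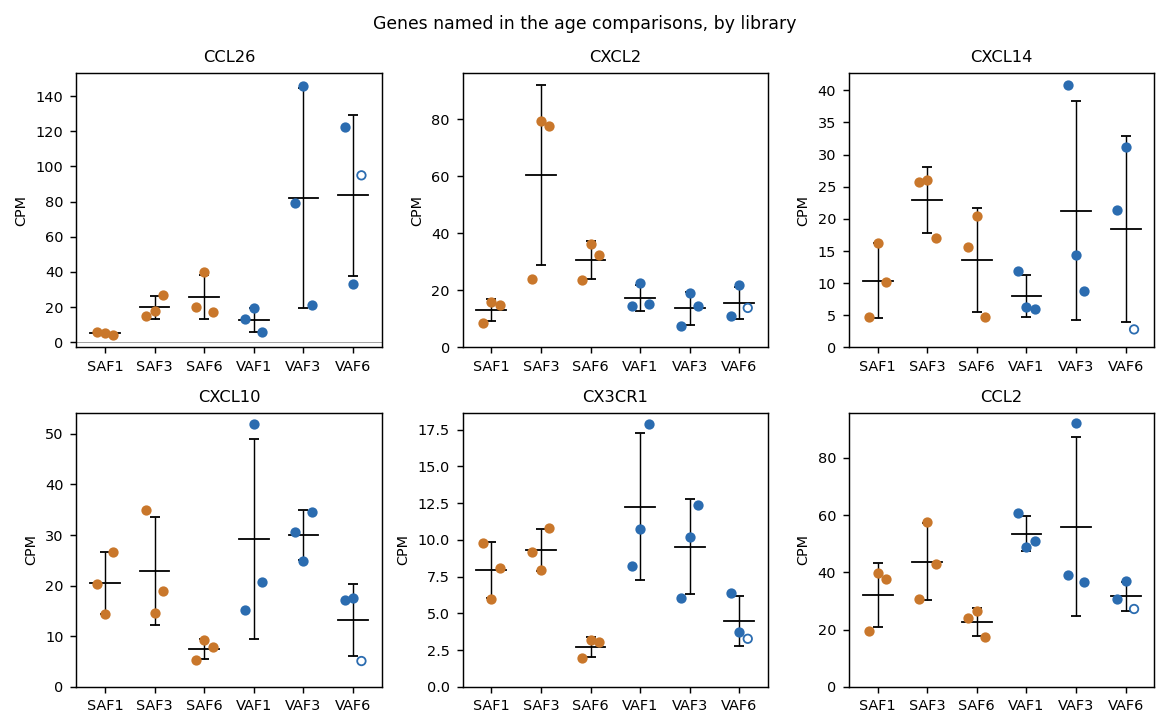
CPM of 6 genes named in the age comparisons, in each library (SAF orange, VAF blue, VAF6-3 open), with the mean of 3 libraries and the SD as a bar. CCL26 is lowest at 1 month in both depots, CXCL10 and CX3CR1 are lowest at 6 months in SAF, and CXCL2 is highest in SAF3.

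Within VAF edgeR again called no member, and DESeq2 called 1 between 1 and 3 months (CCL26), 0 between 3 and 6 months and 3 between 1 and 6 months, against 3.51%, 3.27% and 7.22% of the genes it tested. From 1 to 3 months 6 of 38 tested members had an unadjusted p under 0.05 (3 in each direction), against 9.07% of all genes, and 0% of all genes were called. CCL26 again lay higher at 3 months without overlap (-2.69 ± 0.73 (SE), adjusted p = 0.355), although VAF3-3 (20.9 CPM) stood just above VAF1-2 (19.4 CPM). Non-overlap was a condition for being named in this comparison. CCL4 (1.02 ± 0.40 (SE), adjusted p = 0.510) and CXCR4 (1.18 ± 0.47 (SE), adjusted p = 0.520) lay lower at 3 months. Without VAF3-3 edgeR called 5 of 39 (ACKR4, CCL19, CCL21, CCL26 and CXCR4), against 6.44% of all genes. CXCR4 stood at 5.73, 8.81 and 7.78 CPM in VAF1 and 1.95, 2.44 and 5.43 in VAF3. From 3 to 6 months the count was 3 of 38, against 10.8% of all genes, and 0% were called. CXCL10 had 0.79 ± 0.27 (SE), adjusted p = 0.452 and ACKR3 -0.74 ± 0.23 (SE), adjusted p = 0.452, from 43.4, 47.8 and 52.8 CPM in VAF3 to 80.9, 80.6 and 139 in VAF6. Without VAF3-3 edgeR called 2 of 38, ACKR4 and CCL21, against 11% of all genes.

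From 1 to 6 months in VAF 7 of 40 members had an unadjusted p under 0.05 (4 lower and 3 higher at 6 months), against 17.9% of all genes, with 0.936% of all genes called. CXCL14 came closest to a call, from 11.8, 6.28 and 5.94 CPM in VAF1 to 21.3, 31.2 and 2.81 in VAF6, with -1.72 ± 0.36 (SE), adjusted p = 0.0824, and VAF6-3, which the test left out, lay below all VAF1 libraries. CCL26 (-2.60 ± 0.64 (SE), adjusted p = 0.117) and CCL19 (-1.07 ± 0.37 (SE), adjusted p = 0.209) lay higher at 6 months. CCL2 (0.66 ± 0.18 (SE), adjusted p = 0.137), CCL21 (1.89 ± 0.52 (SE), adjusted p = 0.142) and CX3CR1 (1.28 ± 0.42 (SE), adjusted p = 0.196) lay lower. CCL2 stood at 60.6, 49 and 51 CPM in VAF1 and 30.6, 37 and 27.2 in VAF6. The 3 called by DESeq2 were CCL21, CCL26 and CXCL14, and CXCL14 was called by edgeR without VAF1-1, against 0.874% of all genes. Libraries of the same number in VAF1 and VAF6 had weak positive correlations (0.248, 0.136 and 0.121), although they come from different pigs. The number cannot mark a pig across ages, so what a block on it stands for is not known. With the number as a block, 2 of 40 members were called, against 5.46% of all genes: CCL21 (2.19 ± 0.33 (SE), adjusted p = 0.0127) and CXCL14 (-1.57 ± 0.35 (SE), adjusted p = 0.0428).

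Whether the depot difference itself varied with age was tested as an interaction, and no member was called, nor was any other gene (0% for 1 against 3 months, 0% for 3 against 6 and 0% for 1 against 6). The members with an unadjusted p under 0.05 numbered 3 of 40 (CXCL2, CCR8 and CCR1), 3 (CCR8, ACKR4 and CCL21) and 0, against 5.66%, 8.7% and 1.88% of all genes. CXCL2 had the smallest, with -2.56 ± 0.63 (SE), adjusted p = 0.455, and was the only member DESeq2 called in the 3 interactions (adjusted p = 0.0211), against 0.592%, 0.655% and 0.00849% of the genes it tested. Without VAF3-3 edgeR called ACKR4 and CCR8 for 3 against 6 months, against 2.38% of all genes.

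The signalling genes downstream of these receptors were followed as a list of 63, of which 62 were tested in the averaged contrast. Called higher in VAF were 7 (RAC2, WAS, PTK2B, PRKCD, JAK3, ARRB2 and VAV1) and none higher in SAF, against 4.09% of all genes called and 2.9% called higher in VAF, with a median log2 fold change of -0.20 over the 62 and -0.01 over all genes. RAC2, a small GTPase of blood cells, had -1.18 (adjusted p = 0.00173), WAS, an actin regulator of blood cells, -0.87 (adjusted p = 0.00812), and VAV1, an exchange factor for Rac in lymphocytes, -0.997 (adjusted p = 0.0409). These 3 are themselves expressed mostly by blood cells. Of 9 tested related genes that the symbol rule does not take, CMTM3 was called, with -0.65 (adjusted p = 0.0182), while RARRES2, the precursor of chemerin, had -1.01 (adjusted p = 0.0778) and the atypical receptor CCRL2 -0.78 (adjusted p = 0.0957).

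The 11 members that did not pass the filter of the averaged contrast were CCL1, CCL11, CCL17, CCL20, CCL22, CCL27, CCL28, CCR4, CCR6, CCR9 and CXCR5. Among them CCL20, the ligand of CCR6, had 12 counts, all in the 3 VAF3 libraries, and CCL17 and CCL22, the ligands of CCR4, had 45 and 52 counts over all libraries. In the fits with no filter, 10 of the 11 were tested and none was called in any comparison, while 2 had an unadjusted p under 0.05 in at least 1 comparison. The tested members not described above were CCR10, with -0.06 ± 0.47 (SE), adjusted p = 0.961 in the averaged contrast, and the neutrophil receptor CXCR2, with -0.96 ± 0.53 (SE), adjusted p = 0.267. CXCL8 had -0.08 ± 0.43 (SE), adjusted p = 0.932, CXCL13 -1.27 ± 0.73 (SE), adjusted p = 0.290, CCL25 -0.23 ± 0.22 (SE), adjusted p = 0.520 and CCR3 -1.01 ± 0.71 (SE), adjusted p = 0.388.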

How the data were processed

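The authors sequenced total RNA of both fat depots as Illumina libraries. Per the study's methods and processing notes, reads were filtered with fastp, aligned to Sscrofa11.1 with HISAT2 2.0.4 and counted with HTSeq-count. The deposited table holds raw counts per gene, with no normalization. Filtered reads with too many undetermined bases differed between most SAF and VAF libraries, so depot and this technical difference cannot be told apart. Replicates are labelled as separate libraries, and p-values measure only the spread between them.

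Counts were tested with edgeR 4.0.16 (TMM, filterByExpr, quasi-likelihood F-test, Benjamini-Hochberg over all genes tested) in R 4.3.3. Comparisons of 2 groups used their own libraries, and the averaged contrast and interactions used 17 libraries. A call needed an adjusted p below 0.05 and, except for interactions, a log2 fold change beyond 0.585. SE was the log2 fold change over the square root of F. Alternatives were DESeq2 1.42.0, its size factors, no filter, each library left out, all libraries in 1 fit, a replicate block, VAF6-3 included and the other reading of the labels. The fits were tested on simulated data. 1 called member is counted but not reported here by name. Members and lists were chosen with earlier results of these data known. Named were called members, the 8 ligands and 8 receptors of highest mean CPM, per comparison up to 3 non-overlapping members in each direction with the smallest unadjusted p under 0.05 (up to 5, overlap not asked, in the averaged contrast), and both partners of 5 axes. Other members were named for completeness. Correlations of same-numbered SAF and VAF libraries (deviations from group means over 15343 genes) were all above 0.1 at 6 months, but not at 1 or 3 months. Between ages they were all above 0.1 only for VAF1 and VAF6.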

Additional observations from a re-analysis of the deposited data

Results flagged for a closer look

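VAF6-3, used only in the alternative tests that include it, held 2 members far above every other library. ACKR2 stood at 214.1 CPM (5640 counts) in VAF6-3, against at most 78.8 CPM in the other 17 libraries (VAF1-1). CCR6, the receptor of CCL20 on B cells and T helper cells, stood at 3.34 CPM (88 counts) there, against at most 0.602 CPM elsewhere (VAF1-2). The annotated ACKR2 overlaps ZNF662 on the same strand. In the same library the lymphatic endothelium markers PROX1, LYVE1, FLT4 and PDPN summed to 540.1 CPM, against 90.0 to 304.8 CPM in the others. LYVE1 alone gave 486.6 CPM of that sum. PROX1 (4.90 CPM), FLT4 (14.1 CPM) and PDPN (34.5 CPM) lay within the range of the other libraries. Sums of the macrophage and monocyte (3456 CPM), mast cell (48.8 CPM) and mesothelial (22.4 CPM) markers in VAF6-3 were also the highest of the 18. The part of any of these cell types in the ACKR2 and CCR6 values was not tested. The B cell markers summed to 4.67 CPM there, the lowest of the 18. Groups of 3 libraries are too small for a test of outlying samples.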

How the results depend on the processing

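Counts below are called members. DESeq2 gave 8 and 2 between depots at 3 and 6 months, 3, 2 and 6 in SAF for 1 against 3, 3 against 6 and 1 against 6 months, 1 and 3 in VAF for 1 against 3 and 1 against 6 months, 14 in the averaged contrast and 1 in the interaction of 1 against 3 months. With no filter, SAF had 2 for 1 against 3 months (0.567% of all genes) and 1 for 1 against 6 months (0.454%). In VAF the fit with no filter gave 2 for 1 against 6 months (1.74%). The other reading of the labels gave 1 between depots at 3 months (0.202% of all genes) and 5 in the averaged contrast, whose share is given above. All 17 libraries in 1 fit gave 1 between depots at 3 months (2.73%). The replicate block gave 9 between depots at 6 months, 2 and 1 in SAF for 1 against 3 and 1 against 6 months, 3 and 2 in VAF for 3 against 6 and 1 against 6 months, and 5 in the averaged contrast. The block called 1% and 0.235% of all genes in those comparisons of SAF and 14.7% and 5.46% in those of VAF. Same-numbered libraries deviated together between depots at 6 months and had only weak positive correlations between VAF1 and VAF6, which are different pigs. Elsewhere not all correlations were positive (between depots at 1 month -0.209, -0.0339 and 0.339, at 3 months 0.12, 0.493 and -0.0154). Leaving out SAF6-3 as well as VAF6-3, chosen after seeing the data, gave 4 in the averaged contrast (3.48% of all genes). As VAF6-3 is outside that contrast, this is the same fit as the one without SAF6-3. Leaving out 1 library at a time gave 1 to 16 in the averaged contrast, 0 to 5 between depots at 3 months, 0 to 2 and 0 to 1 in SAF for 1 against 3 and 1 against 6 months, 0 to 5, 0 to 2 and 0 to 1 in VAF for 1 against 3, 3 against 6 and 1 against 6 months, and 0 to 2 in the interaction of 3 against 6 months. Signs reversed for genes that were not called: CCL16 (0.31 without VAF1-1, lowest -2.13 with 1 library left out), CXCL14 (0.0147 with VAF6-3, 0.11 with the block, and -0.32 to 0.13 with 1 library left out, highest without VAF3-1) and CXCR4 (-0.018 with VAF6-3, and -0.10 without SAF6-3 to 0.32 with 1 library left out, and -0.04 without VAF6-1). The cause was not tested.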
